A study of Mus musculus with 8 samples.

Results

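The Notch receptors Notch1, Notch2, Notch3 and Notch4, the ligands Dll1, Dll4, Jag1 and Jag2, and the transcription factors Hes1 and Atoh1 were read by gene symbol from a duodenal expression table of 54532 genes, and all 10 were found. The table holds bulk RNA of the mouse duodenum in 2 groups of 4 libraries. The control group (WT) was Zeb2+/+, and the other group was Zeb2+/-, a global heterozygous knockout of Zeb2 in which every cell type carries the mutant allele. Zeb2 encodes a zinc-finger repressor, and the study used the mice as a model of Mowat-Wilson syndrome, in which the human gene is affected. Age, sex, strain, the construction of the allele and the animal behind each library are not given in the labels or files, so p-values speak of differences among these libraries, part of which may be technical.

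Notch signalling passes between touching cells. A Delta or Jagged ligand binds a Notch receptor on the neighbouring cell, endocytosis of the ligand pulls on the receptor, the receptor is cut by proteases, and the freed intracellular part joins the DNA-binding protein RBPJ to switch on targets such as Hes1. In the crypts of the small intestine, Hes1 represses Atoh1: cells with active Notch become absorptive enterocytes, and cells with Atoh1 become goblet, Paneth, enteroendocrine or tuft cells and carry Delta ligands. In the wall around the epithelium, Notch1, Notch4 and Dll4 are known from endothelial cells, and Notch3 from the mural cells (pericytes and smooth muscle) that wrap vessels.

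Each library had between 13579347 and 17137417 reads on genes, and levels are in FPKM, a fragment count per gene length and library size, which allows levels of different genes to be compared. Zeb2 itself averaged 0.943 ± 0.192 FPKM (WT) and 0.301 ± 0.146 FPKM (Zeb2+/-; SD, n = 4 each), with no overlap between the groups (exact two-sided permutation p = 0.0286, the smallest that 4 against 4 allows). Enterocyte markers summed to 24159 to 35169 FPKM in WT and 15158 to 47163 FPKM in Zeb2+/-, so the tissue carried the markers of its label. Pancreatic acinar markers were present beside them in WT, at a sum of 143 to 2171 FPKM against 1.93 to 7.54 FPKM in Zeb2+/-. Zeb2+/- libraries 1 and 3 lay at opposite ends of the second principal component. Some results that rest on them are given with and without them, while marker lists and their sums are given with all libraries only. Of 12190 genes with a mean of at least 1 FPKM, limma called 395 changed (Benjamini-Hochberg adjusted p below 0.05, 3.24%), 57 higher (0.468%) and 338 lower (2.77%) in Zeb2+/-. Zeb2, with a mean below 1 FPKM, was read from limma's fit of all genes above 0. Its log2 fold change of FPKM + 1 there was -0.58 with an adjusted p of 0.0772, so Zeb2 itself was not called.

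Among the 10 Notch genes, Notch1 was lower in Zeb2+/- at 36.4% of its WT level and was the only member called. Notch3 and Notch4, both with means below 1 FPKM over all 8 libraries, stood at 32.4% and 42.2% of WT without overlap between the groups, and missed the threshold in the fit that holds them. Notch2, the ligands and Atoh1 had overlapping groups and were not called. Hes1 was at 140% of its WT level and was not called. Counted together, 1 of the 7 members above the expression minimum was called lower, where 2.77% of all genes were, and 0 were called higher in limma, where 0.468% were (Hes1 alone was higher at an unadjusted p under 0.05). The median log2 fold change of these 7 members was -0.08, against 0.00 for all 12190 genes.

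**Figure D1:**
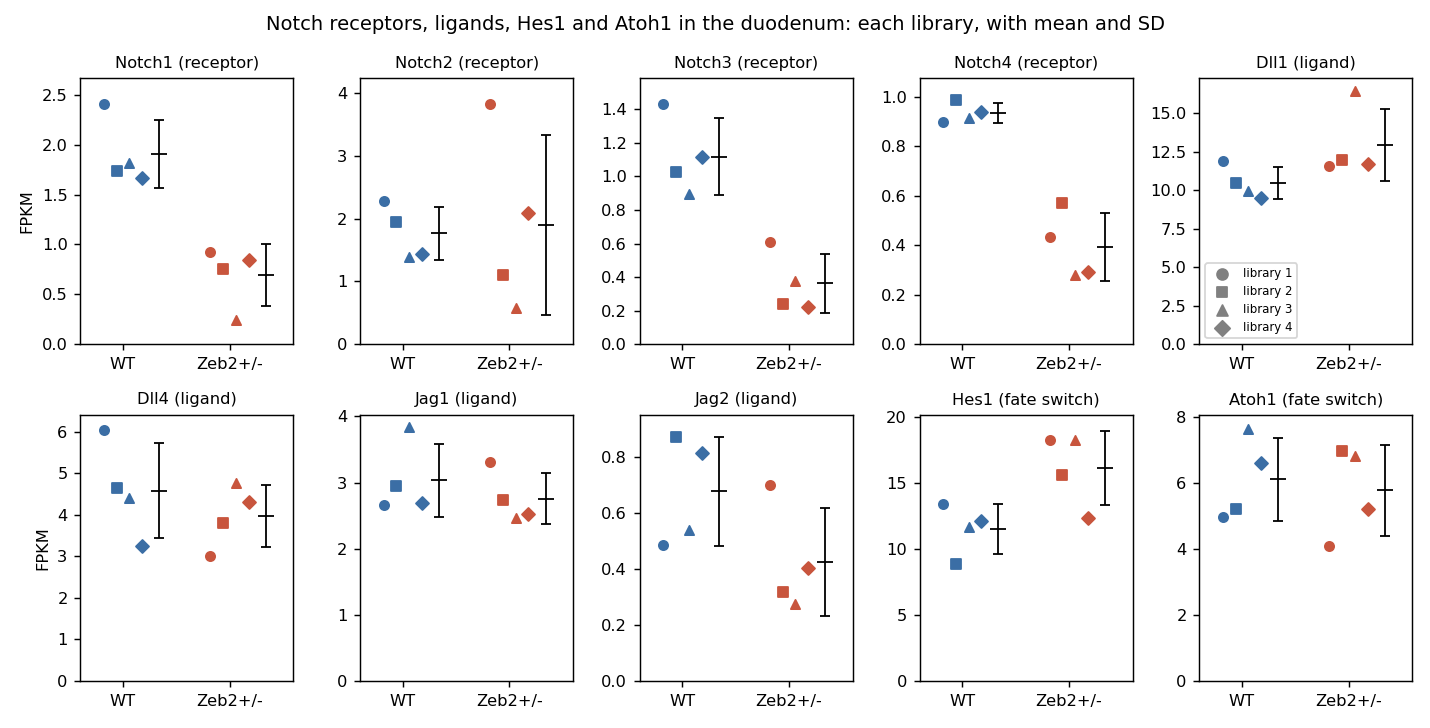
FPKM of each of the 10 genes in every library, with 1 panel a gene, a linear axis from 0 and points for single libraries (WT left, Zeb2+/- right; the marker shape gives the library number, and the bar with whiskers is the mean of 4 ± SD). The Zeb2+/- points lie below all WT points for Notch1, Notch3 and Notch4, and the groups overlap for the other genes.

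In WT duodenum the target Hes1 (11.5 ± 1.93 FPKM) and the ligand Dll1 (10.5 ± 1.04 FPKM) had the highest levels of the 10. Atoh1 (6.11 ± 1.25 FPKM), Dll4 (4.58 ± 1.15 FPKM) and Jag1 (3.04 ± 0.552 FPKM) followed. The receptors came below them, from Notch1 at 1.90 ± 0.339 FPKM through Notch2 at 1.77 ± 0.424 FPKM and Notch3 at 1.12 ± 0.229 FPKM to Notch4 at 0.934 ± 0.0392 FPKM, and Jag2 was lowest at 0.679 ± 0.195 FPKM (all SD, n = 4). The WT ranges of neighbours in this order were apart only between Dll1 and Atoh1, between Jag1 and Notch1, and between Notch4 and Jag2. The other neighbours had overlapping ranges, though Dll4 was above Jag1, and Notch2 above Notch3, within each of the 4 WT libraries. In Zeb2+/- the first 5 places were the same, Notch2 stood above Notch1, and Jag2, Notch4 and Notch3 closed the order; there the only neighbours without overlap were Dll1 and Atoh1.

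Notch1 (ENSMUSG00000026923, GRCm38 chromosome 2, 26457903 to 26516663, minus strand) encodes the receptor best known in crypt progenitors and in endothelium. WT libraries 1 to 4 held it at 2.40, 1.73, 1.82 and 1.66 FPKM, and Zeb2+/- libraries 1 to 4 at 0.926, 0.759, 0.241 and 0.844 FPKM. Every Zeb2+/- library was below every WT library, as was so for 6.87% of all tested genes (another 7.65% were separated in the higher direction), and Zeb2+/- library 3 was the lowest. The log2 fold change of FPKM + 1 was -0.79 (SE 0.17, 95% interval -1.19 to -0.40), and limma's adjusted p was 0.0454, close to the threshold. The call was lost in 13 of 20 alternatives, among them the fit of all genes above 0 (adjusted p = 0.0742) and limma voom on rebuilt reads (adjusted p = 0.1002). Without WT library 1, 2, 3 or 4 the limma adjusted p was 0.164, 0.117, 0.114 or 0.102, without Zeb2+/- library 2 or 4 it was 0.0772 or 0.0723, and without Zeb2+/- libraries 1 and 3 together it was 0.0575 with a log2 fold change of -0.68.

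Notch2 (ENSMUSG00000027878, chromosome 3, 98013527 to 98150361, plus strand), the receptor that acts beside Notch1 in crypt cells, was at 2.28, 1.94, 1.39 and 1.44 FPKM in WT libraries 1 to 4. In Zeb2+/- libraries 1 to 4 it was at 3.83, 1.10, 0.582 and 2.09 FPKM. Library 1 was the highest of all 8 and library 3 the lowest, a 6.58-fold range within Zeb2+/-. The means, 1.77 ± 0.424 and 1.90 ± 1.43 FPKM (SD, n = 4 each), did not differ beyond that spread, with a log2 fold change of -0.05 (SE 0.32, limma adjusted p = 0.958). The 95% interval of -0.76 to 0.67 leaves room for changes in either direction. Without Zeb2+/- library 3 the log2 fold change was 0.20, and without libraries 1 and 3 it was -0.11.

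B cell markers varied between the same libraries, and Notch2 is known from B cells, where it is the receptor of marginal zone cells. The 8 listed B cell markers summed to 33.8, 49.8, 4.89 and 4.58 FPKM in WT libraries 1 to 4 and to 161.7, 2.30, 1.11 and 107.4 FPKM in Zeb2+/- libraries 1 to 4. Within each genotype the pair of libraries with the highest B cell sums was also the pair with the highest Notch2, and Zeb2+/- library 3 was lowest in both. In the list 0 of 8 markers were called by limma (0 at an unadjusted p under 0.05 in either direction, median log2 fold change 0.63), and 6 of them, Ms4a1 included, were at 0 in at least 1 library. The part of B cells in the Notch2 values, in its share of the receptors and in the Notch1 to Notch2 ratio was not tested.

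Notch3 (ENSMUSG00000038146, chromosome 17, 32120820 to 32166880, minus strand), the receptor of mural cells, was at 1.43, 1.03, 0.896 and 1.11 FPKM in WT libraries 1 to 4. Zeb2+/- libraries 1 to 4 held 0.608, 0.242, 0.375 and 0.223 FPKM, all below the lowest WT library. These values rest on 22 to 174 reads a library. Notch4 (ENSMUSG00000015468, chromosome 17, 34564268 to 34588503, plus strand), a receptor restricted mainly to endothelium, showed the tightest WT values of the 10, at 0.897, 0.987, 0.913 and 0.939 FPKM. In Zeb2+/- libraries 1 to 4 it was at 0.434, 0.571, 0.280 and 0.290 FPKM, on 27 to 128 reads in any library. Its groups did not overlap either.

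Both genes are below the expression minimum and were read from limma's fit of all 27850 genes above 0, in which 1.14% were called, 1.07% lower and 0.0718% higher; in 8.88% the groups did not overlap, in 4.82% with all Zeb2+/- libraries below all WT libraries. Notch3 had a log2 fold change of -0.64 (SE 0.13, 95% interval -0.94 to -0.34) with an adjusted p of 0.0706. For Notch4 it was -0.48 (SE 0.10, 95% interval -0.72 to -0.24) with a limma adjusted p of 0.0876. Permuting each gene's own 8 values exactly, two-sided, gave p = 0.0286 for Notch1, Notch3 and Notch4, the smallest it can give, and p = 0.914 for Notch2. Notch3 passed limma's threshold in 4 of 19 alternatives, among them without Zeb2+/- library 1 (adjusted p = 0.0365), and Notch4 in 1 of 19.

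**Figure D2:**
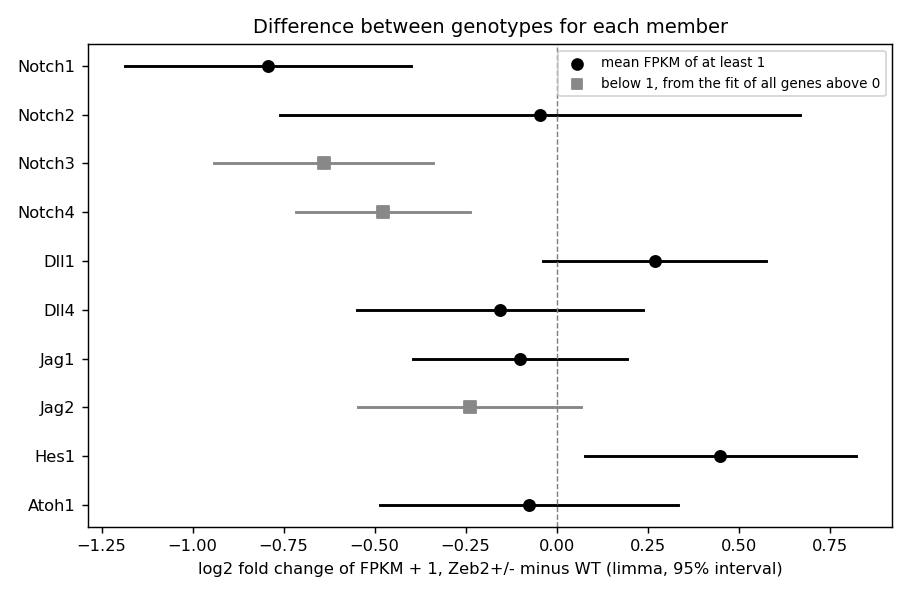
Log2 fold change of FPKM + 1 (Zeb2+/- minus WT) with limma's 95% interval for the 10 genes; black circles are genes with a mean of at least 1 FPKM and grey squares are genes below it, from the fit of all genes above 0. The intervals of Notch1 (-1.19 to -0.40), Notch3 and Notch4 lie below 0, that of Hes1 (0.08 to 0.82) above it, and the other 6 span 0; intervals are not adjusted for the number of genes.

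The sum of the 4 receptors was 5.02 to 7.02 FPKM in WT and 1.48 to 5.80 FPKM in Zeb2+/-. Only Zeb2+/- library 1 reached the WT range, and Notch2 made up 66.1% of its receptor FPKM. Notch2 held 27.8 to 34.1% of receptor FPKM in the WT libraries and 39.4 to 66.1% in the Zeb2+/- libraries, while the share of Notch1 was 30.5 to 36.2% in WT and 16.0 to 28.4% in Zeb2+/-. The ratio of Notch1 to Notch2 within a library was 1.10 ± 0.172 in WT and 0.437 ± 0.186 in Zeb2+/-, with every Zeb2+/- library lower; the B cell sums given above differ between the same libraries. Of the 10 ratios tested it was 1 of the 2 without overlap between the groups (exact two-sided permutation p = 0.0286), and its p adjusted over the 10 ratios was 0.143. The log2 difference of -1.28 was -0.97 without Zeb2+/- libraries 1 and 3.

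All 4 receptor genes have gene lengths above 8 kilobases in the table, from 8044 bases (Notch3) to 14232 bases (Notch1). Among tested genes that long the median log2 fold change was -0.13, and 73.5% of 1693 such genes lay below 0. Notch1 was further down than nearly all of them, with 31 of the 1693 (1.83%) lower, whereas 1109 of them were lower than Notch2. With the trend on gene length removed, an alternative chosen after seeing the data, Notch1 had a log2 fold change of -0.63 and a limma adjusted p of 0.150. On the same scale Notch3 had -0.60 (adjusted p = 0.0864), Notch4 had -0.44 (adjusted p = 0.147) and Notch2 had 0.07. The part of gene length in the receptor differences was not tested further.

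Endothelial markers were lower in Zeb2+/-, and mural and smooth muscle markers were mixed or higher. Of 11 tested endothelial markers 7 fell and 0 rose, with a median log2 fold change of -0.98, and the summed level of the 12 listed markers was 33.1 to 35.2 FPKM in WT and 8.42 to 18.0 FPKM in Zeb2+/-, 37.3% of WT by means. No endothelial marker was at 0 in any library. Kdr, the main VEGF receptor, went from 3.43 ± 0.318 to 0.554 ± 0.133 FPKM (limma adjusted p = 0.0005) and Tie1, an endothelial receptor tyrosine kinase, from 2.84 ± 0.3397 to 0.691 ± 0.144 FPKM (limma adjusted p = 0.0013). Eng, a TGF-beta coreceptor, the clotting factor carrier Vwf, the junction protein Cdh5, the angiopoietin receptor Tek and the guidance receptor Robo4 were the other called genes, with log2 fold changes of -1.27, -0.98, -1.08, -0.83 and -0.88. The call of Robo4 was lost in 7 of 20 alternatives, including those that left out WT library 1, 2 or 4 (limma adjusted p = 0.0681, 0.0647 and 0.0617), and that of Tek in 1 of 20, the replicate block (limma adjusted p = 0.0625). In bulk RNA, fewer cells of a type and less RNA per cell cannot be told apart. The fall was not limited to endothelial markers: 5 of 10 macrophage markers (Adgre1, Tyrobp, C1qb, Csf1r and C1qc) fell, with a median log2 fold change of -1.83 and a summed level at 27.9% of WT. Of 10 fibroblast markers 4 fell (Col6a2, Col6a1, Col3a1 and Pdgfra), with a median of -1.04 and a summed level at 39.1% of WT.

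Of 5 tested mural markers 1 was called, while the list's median log2 fold change was 0.29. Pdgfrb, the PDGF receptor of pericytes and fibroblasts, fell from 4.12 ± 0.388 to 0.784 ± 0.234 FPKM (limma adjusted p = 0.0006). The mural sum was 41.7 to 51.3 FPKM in WT and 36.1 to 99.3 FPKM in Zeb2+/-, and Higd1b was at 0 in at least 1 library. Most of that sum was Rgs5, named with Abcc9 and Kcnj8 after their values were seen; these had log2 fold changes of 0.56, 0.36 and 0.29 and were not called (limma adjusted p = 0.366, 0.501 and 0.583). Smooth muscle markers summed to 225 to 287 FPKM in WT and 287 to 706 FPKM in Zeb2+/-, highest in libraries 1 and 3. Of 9 tested, 0 were called by limma (6 were higher and 0 lower at an unadjusted p under 0.05), 5 were higher without overlap, where 7.65% of all genes were, and the median log2 fold change was 0.68. The contractile genes Cnn1, Mylk and Actg2 had log2 fold changes of 0.88, 0.49 and 0.81 (limma adjusted p = 0.131, 0.139 and 0.144).

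Notch1 and Notch4 were set against the endothelial sum and Notch3 against the mural sum within each library; Notch2 was set against no marker sum. The ratio of Notch1 to the endothelial sum was 0.0551 ± 0.00931 in WT and 0.0520 ± 0.0168 in Zeb2+/- (SD, n = 4 each, exact two-sided permutation p = 0.914, adjusted p = 0.914). Its log2 difference of 0.02 with 0.1 FPKM added to both sides was -0.14 with nothing added. With 1 FPKM added to both sides it was 0.61 (exact permutation adjusted p = 0.0571), so its sign and size depend on that choice. Notch4 to the endothelial sum differed by 0.36 on the log2 scale (exact permutation p = 0.314, adjusted p = 0.393) with overlapping groups. That difference was 0.16 without Zeb2+/- library 2, 0.17 with nothing added and 0.92 with 1 FPKM added to both sides. The ratio of Notch3 to the mural sum was 0.0248 ± 0.00478 in WT and 0.00587 ± 0.000673 in Zeb2+/-, with no overlap (log2 difference -1.80, exact permutation p = 0.0286, adjusted p = 0.143). Without Zeb2+/- libraries 1 and 3 that log2 difference was -1.64. The part of endothelial, mural, smooth muscle, macrophage or fibroblast markers in the receptor levels was not tested beyond these ratios.

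**Figure D3:**
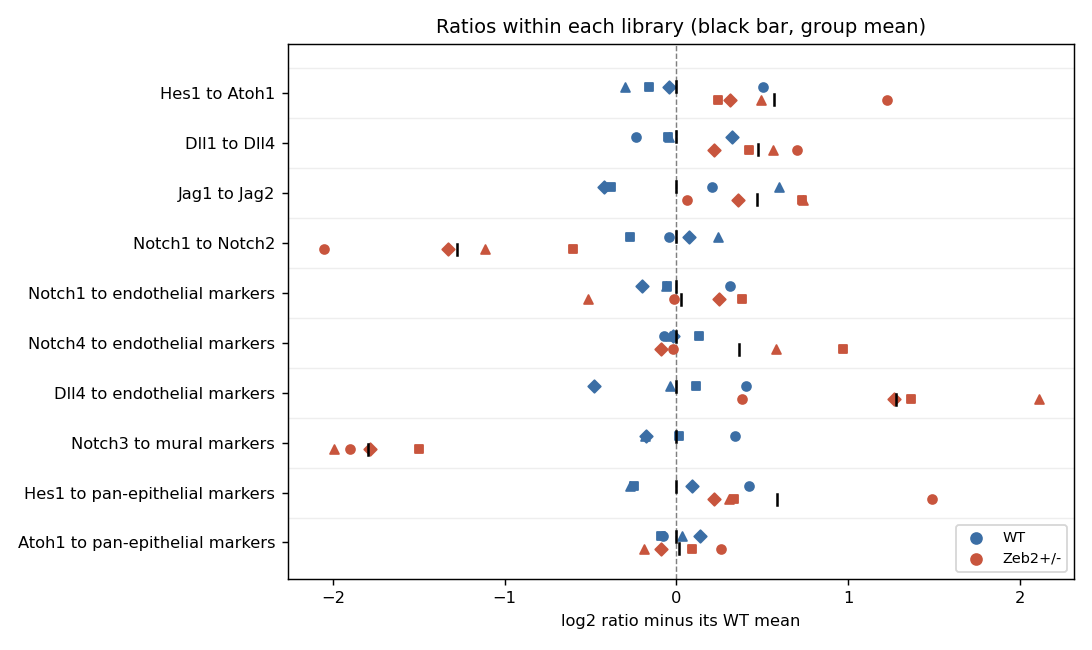
Each of the 10 ratios in every library, as the log2 ratio minus its WT mean, with 0.1 FPKM added to both sides; blue points are WT and red points Zeb2+/-, the marker shape gives the library number, and a black bar is the mean of 4. The groups are apart for Notch1 to Notch2 and for Notch3 to mural markers, and overlap for the other ratios.

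The promoter sequences of the 3 receptors without overlap between the groups are shown here together with those of Dll1 and Jag1, because ZEB proteins bind the letters CACCT and these windows show where the letters are present and where they are not. Each window is the 250 bases before a RefSeq gene start in GRCm38.p6, written 5′ to 3′ on the strand of the gene, and capitals mark CACCT or its reverse complement AGGTG.
Notch1 (chr2:26503823-26504072, minus strand): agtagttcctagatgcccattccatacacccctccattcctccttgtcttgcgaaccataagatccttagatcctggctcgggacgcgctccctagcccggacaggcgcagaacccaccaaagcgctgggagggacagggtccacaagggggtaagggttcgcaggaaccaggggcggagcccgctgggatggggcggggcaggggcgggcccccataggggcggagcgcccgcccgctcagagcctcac
Notch3 (chr17:32166891-32167140, minus strand): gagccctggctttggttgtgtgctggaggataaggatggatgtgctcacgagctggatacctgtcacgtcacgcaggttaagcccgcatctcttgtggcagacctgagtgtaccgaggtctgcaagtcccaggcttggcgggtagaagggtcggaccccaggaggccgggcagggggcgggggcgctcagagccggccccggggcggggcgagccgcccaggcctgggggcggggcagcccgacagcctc
Notch4 (chr17:34564045-34564294, plus strand): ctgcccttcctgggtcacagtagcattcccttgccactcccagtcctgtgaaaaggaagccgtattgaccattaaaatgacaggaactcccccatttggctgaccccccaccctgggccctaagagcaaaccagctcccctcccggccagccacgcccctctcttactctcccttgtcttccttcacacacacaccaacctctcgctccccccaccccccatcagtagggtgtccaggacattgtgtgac
Dll1, upstream of 2 starts (chr17:15376933-15377182, minus strand): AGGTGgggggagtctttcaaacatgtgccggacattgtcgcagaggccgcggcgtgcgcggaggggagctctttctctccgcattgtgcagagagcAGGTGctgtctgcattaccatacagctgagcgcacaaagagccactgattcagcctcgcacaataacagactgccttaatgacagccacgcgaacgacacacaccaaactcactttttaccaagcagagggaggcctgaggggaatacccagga
Jag1 (chr2:137116521-137116770, minus strand): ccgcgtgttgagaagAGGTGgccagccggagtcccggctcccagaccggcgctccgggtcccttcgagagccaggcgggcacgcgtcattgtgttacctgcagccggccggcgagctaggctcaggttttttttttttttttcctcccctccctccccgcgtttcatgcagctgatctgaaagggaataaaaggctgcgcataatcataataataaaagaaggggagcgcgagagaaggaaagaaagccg

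The table of promoters matched 9 of the 10 genes, all but Hes1, with 2 starts for Dll1, and so gave 10 windows. CACCT or AGGTG was present in 2 of the 10 windows, at positions -250 and -154 from the upstream Dll1 start and at -235 from the Jag1 start, where 46.0% of all 32851 promoter windows of that length hold it. The windows of Notch1, Notch3 and Notch4 did not contain these letters. The Notch1 window lies inside the gene span given above, which reaches 26516663 on chromosome 2, so the sequence before that end was not read. TGGGAA or TTCCCA, a core of the RBPJ site, was in 0 of the 10 windows and in 21.6% of all windows. The promoter of the target Hes1 was not among the 10 and was not read. CACNAG or CTNGTG, the N-box bound by Hes proteins, was in 4 of 10 and in 36.7% of all, and the E-box CANNTG, which overlaps CACCTG, was in 4 of 10 and in 66.2% of all. Letters in a window are a description and not a binding site.

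Of the ligands, none was called in either direction. Dll1 (ENSMUSG00000014773, chromosome 17, 15367354 to 15376872, minus strand), the Delta ligand of secretory progenitors, was at 11.9, 10.5, 9.98 and 9.53 FPKM in WT libraries 1 to 4. In Zeb2+/- libraries 1 to 4 it was at 11.6, 12.0, 16.4 and 11.7 FPKM. Library 3 stood apart from the other 3 Zeb2+/- libraries, which lay around the highest WT library. The mean was 12.9 ± 2.34 against 10.5 ± 1.04 FPKM in WT, 123%, with a log2 fold change of 0.27 (SE 0.13, 95% interval -0.04 to 0.57, limma adjusted p = 0.320). Without Zeb2+/- library 3 the log2 fold change was 0.16.

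Dll4 (ENSMUSG00000027314, chromosome 2, 119325784 to 119335962, plus strand) serves both secretory progenitors and the tips of growing vessels. It was at 6.04, 4.65, 4.40 and 3.24 FPKM in WT libraries 1 to 4 and at 3.01, 3.81, 4.76 and 4.31 FPKM in Zeb2+/- libraries 1 to 4. The groups overlapped throughout, and the log2 fold change was -0.16 (SE 0.17, 95% interval -0.55 to 0.24, limma adjusted p = 0.685). An antisense gene, Gm14207, overlaps Dll4 with up to 90 reads a library beside 166 to 351 for Dll4, and since the strand setting of the counting is not given, reads of the pair cannot be told apart. A930024N18Rik, with up to 48 reads, overlaps Dll1 in the same way, and the genes opposite Notch1 and Notch3 had 14 reads or fewer.

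Jag1 (ENSMUSG00000027276, chromosome 2, 137081456 to 137116644, minus strand), the main Jagged ligand of gut epithelium and vessel walls, was at 2.66, 2.95, 3.84 and 2.69 FPKM in WT libraries 1 to 4. Zeb2+/- libraries 1 to 4 held 3.31, 2.73, 2.46 and 2.53 FPKM. WT library 3 was the highest and the groups overlapped, with a log2 fold change of -0.10 (SE 0.13, 95% interval -0.39 to 0.19, limma adjusted p = 0.734). Jag2 (ENSMUSG00000002799, chromosome 12, 112907819 to 112929776, minus strand), its relative, was at 0.486, 0.874, 0.539 and 0.818 FPKM in WT and at 0.702, 0.318, 0.276 and 0.403 FPKM in Zeb2+/-, on 23 to 98 reads. Zeb2+/- library 1 lay within the WT range and the other 3 below it. The log2 fold change was -0.24 (SE 0.13, 95% interval -0.55 to 0.07, adjusted p = 0.541 in limma's fit of all genes above 0).

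The summed ligand level was 16.3 to 21.1 FPKM in WT and 18.6 to 23.9 FPKM in Zeb2+/-. Dll1 made up 53.2 to 58.5% of it in WT and 61.8 to 68.7% in Zeb2+/-. The ratio of Dll1 to Dll4 was 2.36 ± 0.408 in WT and 3.29 ± 0.472 in Zeb2+/-, with overlapping groups (exact two-sided permutation p = 0.0571, adjusted over 10 ratios 0.143). Dll4 against the endothelial sum was 0.133 ± 0.0333 in WT and 0.345 ± 0.165 in Zeb2+/- (exact two-sided permutation p = 0.0571, adjusted p = 0.143). Its highest value, 0.566, was in Zeb2+/- library 3, where the endothelial sum was lowest. Jag1 to Jag2 differed by 0.47 on the log2 scale with overlapping groups (exact permutation p = 0.200, adjusted p = 0.286).

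Hes1 (ENSMUSG00000022528, chromosome 16, 30064384 to 30067796, plus strand), the Notch target that represses Atoh1, was at 13.4, 8.84, 11.7 and 12.1 FPKM in WT libraries 1 to 4. In Zeb2+/- libraries 1 to 4 it was at 18.3, 15.6, 18.2 and 12.3 FPKM. In 3 of 4 Zeb2+/- libraries it exceeded every WT library, and library 4 lay below WT library 1. The mean was 16.1 ± 2.82 FPKM against 11.5 ± 1.93 FPKM in WT, a log2 fold change of 0.45 (SE 0.16, 95% interval 0.08 to 0.82). The unadjusted p was 0.0232 in limma and the adjusted p 0.190, so Hes1 did not pass. Permuting its 8 values exactly, two-sided, gave p = 0.0571. Over the 21 alternatives its log2 fold change stayed above 0, from 0.26 (without Zeb2+/- libraries 1 and 3) to 0.56, with limma adjusted p from 0.119 to 0.446.

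Atoh1 (ENSMUSG00000073043, chromosome 6, 64729125 to 64731245, plus strand), the factor that commits crypt cells to the secretory lineages, was at 4.97, 5.21, 7.63 and 6.61 FPKM in WT libraries 1 to 4 and at 4.08, 6.97, 6.83 and 5.22 FPKM in Zeb2+/- libraries 1 to 4. The ranges nearly coincided. The log2 fold change was -0.08 (SE 0.18, 95% interval -0.49 to 0.33, limma adjusted p = 0.863), an interval that holds both a modest fall and a modest rise. Each value rests on 142 to 211 reads.

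The Hes1 to Atoh1 ratio, which sets the repressor against its target, was 1.94 ± 0.519 in WT and 2.94 ± 1.04 in Zeb2+/-. The groups overlapped (2.24 to 4.48 in Zeb2+/-, 1.53 to 2.70 in WT), and the exact two-sided permutation p was 0.114, adjusted 0.190. Zeb2+/- library 1 held the highest ratio, and without libraries 1 and 3 the log2 difference of 0.57 was 0.28. Of 9 pan-epithelial markers 0 were called by limma, 5 had log2 fold changes below 0, and the median was -0.05. Those of smallest p, the adhesion proteins Cdh1, Epcam and Cldn7, leaned the other way, at 0.39, 0.34 and 0.33. The sum of all 9 was 5257 to 7428 FPKM in WT and 3427 to 7740 FPKM in Zeb2+/-. Against that sum Hes1 differed by 0.59 on the log2 scale (exact permutation p = 0.114, adjusted p = 0.190) and Atoh1 by 0.02 (exact permutation p = 0.886, adjusted p = 0.914), both with overlapping groups. For Hes1 that difference was 0.29 without Zeb2+/- library 1 and 0.28 without libraries 1 and 3, and the Hes1 to Atoh1 difference was 0.35 without library 1.

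Of 48 other genes of the pathway, 33 were above the expression minimum, and limma called 0 higher and 1 lower, against 0.468% and 2.77% of all genes. Their median log2 fold change was -0.10. The called gene was Spen, a scaffold of the corepressor that occupies RBPJ in the absence of Notch. Spen was at 7.05, 7.35, 7.60 and 5.25 FPKM in WT libraries 1 to 4 and at 2.61, 4.93, 3.57 and 3.58 FPKM in Zeb2+/- libraries 1 to 4, without overlap. Its log2 fold change was -0.75 (SE 0.17, limma adjusted p = 0.0493), and the call was lost in 15 of 21 alternatives. Without WT library 1, 2, 3 or 4 the limma adjusted p was 0.157, 0.146, 0.149 or 0.0516, and without Zeb2+/- library 1, 3 or 4 it was 0.0561, 0.0967 or 0.0991.

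The other steps of the pathway held no called gene in limma. Among 5 glycosyltransferases that tune receptor and ligand pairing, Rfng was at 13.3 ± 1.81 FPKM (WT) and 17.4 ± 2.54 FPKM (Zeb2+/-; limma adjusted p = 0.218), and Lfng at 4.06 ± 0.808 and 2.64 ± 1.07 FPKM (limma adjusted p = 0.260), with Mfng at 1.29 ± 0.412 and 1.25 ± 1.05 FPKM. For ligand endocytosis, the ubiquitin ligase Mib1 was at 6.15 ± 0.323 FPKM (WT) and 4.90 ± 0.177 FPKM (Zeb2+/-), without overlap and short of the threshold (limma adjusted p = 0.135), and its relatives Neurl1b and Mib2 had log2 fold changes of 0.13 and 0.06. The 8 tested subunits and enzymes that cut the receptor had a median log2 fold change of -0.08, with the gamma-secretase subunit Psenen at 0.27 and the convertase Furin at -0.31. The 7 inhibitors and turnover factors had a median of -0.24, with Dtx1 at -0.44, the receptor antagonist Numb at -0.47 and Dtx4 at -0.36. Of 8 further targets, 3 were above the minimum: Hes6 at 20.9 ± 1.34 and 24.6 ± 2.38 FPKM, Nrarp at 3.55 ± 0.590 and 2.77 ± 0.721 FPKM, and Hes2 at 14.4 ± 1.68 and 14.3 ± 4.10 FPKM in WT and Zeb2+/-. Rbpj, Snw1, Heyl and the targets given beside Heyl are named here after their values were seen. Rbpj, the DNA-binding partner of all 4 receptors, was at 2.27 ± 0.0728 FPKM (WT) and 2.14 ± 0.194 FPKM (Zeb2+/-, limma adjusted p = 0.794). Of 7 tested genes of the nuclear complex, Spen and Rbpj among them, 6 had log2 fold changes below 0, with a median of -0.35. Snw1 of that complex was at 5.59 ± 0.107 and 3.68 ± 0.798 FPKM in WT and Zeb2+/-, without overlap and not called (limma adjusted p = 0.0797). Heyl, a target known from mural cells, was below the minimum at 0.691 ± 0.113 and 0.260 ± 0.124 FPKM (adjusted p = 0.141 in limma's fit of all genes). It was lower without overlap, as were 4.82% of all genes above 0. Of the other targets below the minimum, Hey1 and Hes7 had lower means in Zeb2+/- and Hey2 and Hes5 higher ones, all with overlapping groups.

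Other transcription factors with known roles in secretory cells, some acting after Atoh1 and some apart from it, had a median log2 fold change of -0.26, and all 14 tested lay below 0, but limma called 2 lower and 0 higher. Bhlha15, also known as Mist1, which builds the secretory apparatus of zymogenic cells including pancreatic acinar cells, was at 2.69, 2.29, 1.997 and 2.90 FPKM in WT and at 0.785, 0.912, 0.647 and 0.893 FPKM in Zeb2+/-. The groups lay far apart (log2 fold change -0.94, SE 0.13, limma adjusted p = 0.0049), and the call was kept in 20 of 20 alternatives; the acinar markers given above stood far lower in the same libraries, and their part in this result was not tested. Sox4, a progenitor factor with a role in tuft and enteroendocrine cells, fell from 3.19 ± 0.398 to 1.57 ± 0.517 FPKM (log2 fold change -0.72, SE 0.15, limma adjusted p = 0.0396). That call was lost in 15 of 20 alternatives, including without WT library 1, 2, 3 or 4 (limma adjusted p = 0.146, 0.0939, 0.111 and 0.0976) and without Zeb2+/- library 1, 3 or 4 (limma adjusted p = 0.0542, 0.0816 and 0.0947).

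Markers of the secretory lineages were counted list by list, and differences between the lists were not tested. Of 10 Paneth cell markers, most of them antimicrobial products of the crypt base, 9 fell and 0 rose, with a median log2 fold change of -2.58. Their summed level was 2855 to 5647 FPKM in WT against 374 to 895 FPKM in Zeb2+/-. Itln1, an intelectin, went from 371.8 ± 115.6 to 57.8 ± 8.52 FPKM (limma adjusted p = 0.0006), and Ang4, an antimicrobial ribonuclease, from 122.0 ± 51.6 to 4.003 ± 2.98 FPKM (limma adjusted p = 0.0011). Defa22, Mptx2, Defa30 and Defa24 had log2 fold changes of -2.34, -3.27, -2.73 and -2.87 (limma adjusted p from 0.0011 to 0.0024). Defensin genes in that list have near-identical copies, and how reads were split among them is uncertain. Of 10 goblet markers 0 were called by limma (2 were lower and 0 higher at an unadjusted p under 0.05, median log2 fold change -0.42). The kallikrein Klk1, the stress sensor Ern2 and the glycosyltransferase Galnt12 had -1.07, -0.58 and -0.24. Within WT, Klk1 and the pancreatic acinar sum were both lowest in library 3 and highest in library 4. The part of acinar tissue in the Klk1 values was not tested. In the goblet list 8 of 10 lay below 0, and the summed level was at 98.1% of WT. The mucin Muc2, named after its values were seen, had 0.61 (limma adjusted p = 0.312). Of 11 enteroendocrine markers 1 fell: Chgb, a granule protein, was at 36.4 ± 3.05 FPKM (WT) and 17.3 ± 4.96 FPKM (Zeb2+/-) (log2 fold change -1.06, limma adjusted p = 0.0151), with adjusted p of 0.0507, 0.0501 and 0.0596 without WT library 1, 3 or 4. In that list 5 markers were lower and 0 higher at an unadjusted p under 0.05, 8 of 11 had log2 fold changes below 0, and the median was -0.28. Of the 11, 3 were lower without overlap, where 6.87% of all tested genes were. Of 7 tested tuft markers 0 were called (1 lower at an unadjusted p under 0.05, median 0.06), with log2 fold changes of 0.40 for Ltc4s and 0.20 for Sh2d6, and Atoh1 itself, as given above, had overlapping groups.

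**Figure D4:**
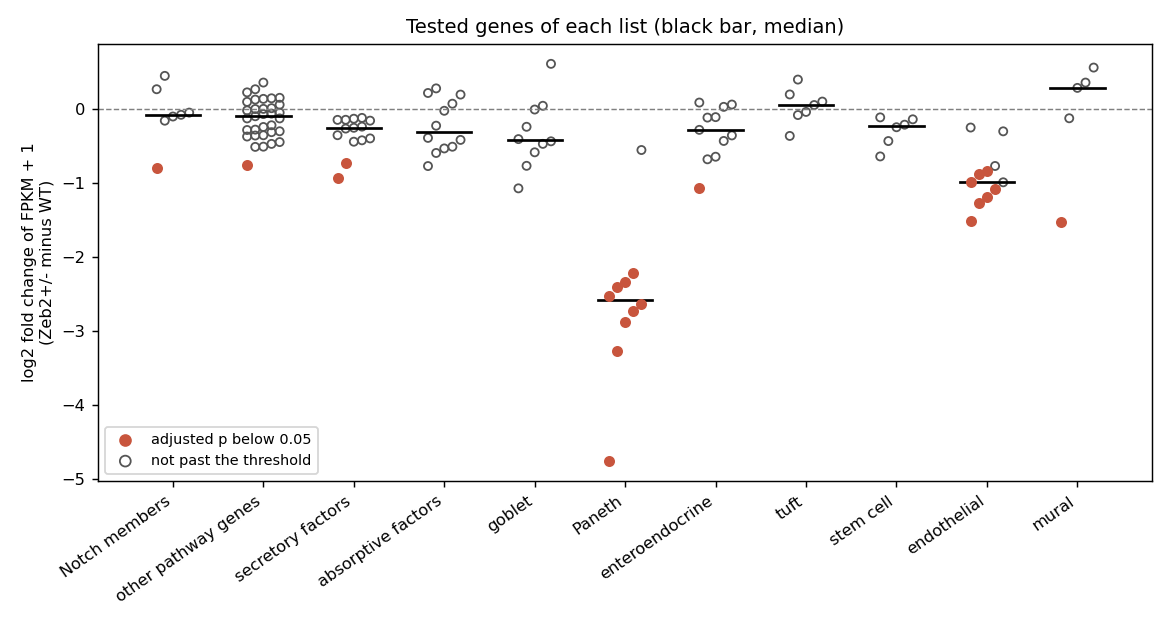
Log2 fold change of FPKM + 1 (Zeb2+/- minus WT) of each tested gene in 11 lists; red points passed limma's adjusted p of 0.05, open points did not, black bars are medians and the dashed line is 0. The Paneth list (median -2.58, 9 of 10 lower) and the endothelial list (median -0.98, 7 of 11 lower) lie far below the other Notch pathway genes (median -0.10, 1 of 33 lower).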

How the data were processed

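Polyadenylated RNA of mouse duodenum was made into directional dUTP libraries, per the labels' protocols, and the submitters' processing notes name GRCm38 (mm10), featureCounts (1.5.0-p3) and HISAT2 (2.0.5), without their settings. Neither the annotation release nor the counting's strand setting is stated in the sources used here. The authors deposited FPKM per gene, with gene lengths. Reads were rebuilt from FPKM times length, which gave whole reads (within 0.01) for 100% of the low values checked. The library total implied by the deposited FPKM was 0.733 to 1.16 times the rebuilt sum, and how that scale was set is not given; within-library ratios do not depend on it, apart from the amount added to both sides.

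The main test was limma 3.58.1 (R 4.3.3; lmFit, eBayes with trend and robust) on log2(FPKM + 1), genotype only, for genes with a mean of at least 1 FPKM; adjusted p below 0.05, two-sided, was called. This scale understates changes of genes near 0. Members below the minimum were read from the fit of all 27850 genes above 0. Exact permutation tests (scipy 1.17.1) compared single genes and 10 ratios (0.1 FPKM added to both sides, Benjamini-Hochberg over the 10). The fit was tested on simulated data. Members and gene lists were chosen with earlier results of these data known; lists are described by counts and medians, without a test. Genes named are the members, each called gene of a list (up to 6 by p) or, where none was called, up to 3 of smallest p, and the 3 genes nearest to each member; lists given only as a sum or median name none or a few of these, genes outside the rule are marked, and a few genes within it are not reported here. Alternatives were other pseudocounts, filters, scalings, variance settings, a replicate block, voom, a fold minimum and leaving out libraries; removal of a gene length trend and ratios without Zeb2+/- libraries 1 and 3 were added after seeing the data. Promoter windows are RefSeq sequences of GRCm38.p6.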

Additional observations from a re-analysis of the deposited data

Results flagged for a closer look

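In 2 of 40 groups of 4 libraries examined for the members and their ratios, 1 library lay far from the other 3 for the spread of its group; by chance about 1 in 20 groups would. Dll1, the Delta ligand of secretory progenitors, was at 16.4 FPKM in Zeb2+/- library 3, against 11.6 to 12.0 FPKM in the other Zeb2+/- libraries, a gap of 0.913 of the group's range. The log2 ratio of Hes1 to the pan-epithelial sum was -7.54 in Zeb2+/- library 1, a gap of 0.911 of the range, and that library held the lowest pan-epithelial sum of the 8, 3427 FPKM. There Epcam, Cdh1 and Cldn7 lay within their WT ranges, and the other listed pan-epithelial markers lay below theirs.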

How the results depend on the processing

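The 395 genes called changed became 157 with a mean of at least 5 FPKM, 202 with voom on rebuilt reads and 1187 with array weights (493 higher and 694 lower), and 218 to 487 with 1 library left out. The count of members called, 1 for Notch1, became 0 with a pseudocount of 0.1, all genes above 0, a mean of at least 5 FPKM (where Notch1 was not tested), TPM scaling, voom, the gene length trend removed, a log2 fold change of at least 1, and without Zeb2+/- libraries 1 and 3 together; with 1 library left out it ranged from 0 to 1. It was kept with a pseudocount of 5, median of ratios, quantile normalization, eBayes without trend and robust, array weights, and without Zeb2+/- library 1 or 3. Notch1 lay below 0 in all 20 alternatives (log2 fold change -1.63 to -0.28). With the replicate number as a block, 299 genes and 0 members were called, with limma adjusted p of 0.0865 for Notch1, 0.154 for Notch3 and 0.292 for Notch4; the numbers were not taken to pair the libraries, because same-numbered libraries deviated together with correlations of 0.236, -0.16, 0.327 and -0.189, and 2 of 4 pairs correlated best with their own number. The log2 fold change of Notch2 turned to 0.0085 with a pseudocount of 5, 0.11 with quantile normalization, 0.0041 with array weights and 0.072 with the length trend removed, and ranged from -0.33 to 0.20 with 1 library left out. That of Atoh1 turned to 0.00295 without Zeb2+/- libraries 1 and 3 and ranged from -0.16 to 0.054 with 1 library left out. The log2 ratio of Notch1 to endothelial markers turned to -0.14 with nothing added, was 0.61 with 1 FPKM added, and ranged from -0.10 to 0.20 with 1 library left out. The causes of these turns were not tested. Of the other 9 ratios, that of Atoh1 to pan-epithelial markers, near 0, ranged from -0.06 to 0.09, and 8 kept their direction in 11 alternatives. With 1 library left out the smallest exact p, 0.0571, is above the threshold, so those values have no call to lose; with 1 FPKM or nothing added to both sides, no adjusted p was below 0.0571. With 1 FPKM added the log2 ratio of Jag1 to Jag2 was 0.14 and that of Notch4 to endothelial markers 0.92. Depth limits Notch3, Notch4 and Jag2 most, with as few as 22 reads a library, and the range among the Zeb2+/- libraries limits Notch2.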

Other observations

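Among 12 transcription factors of the absorptive lineage, 0 were called by limma in either direction (1 was lower and 0 higher at an unadjusted p under 0.05), with a median log2 fold change of -0.31. Hnf4g, a nuclear receptor of enterocytes, was at 238.3 ± 52.5 FPKM (WT) and 147.8 ± 56.3 FPKM (Zeb2+/-), without overlap and not called (limma adjusted p = 0.261). The homeobox factor Cdx2 had a log2 fold change of 0.28 (limma adjusted p = 0.335). Among 6 tested crypt stem cell markers 0 were called by limma (2 were lower and 0 higher at an unadjusted p under 0.05), and all 6 had log2 fold changes below 0 with a median of -0.23. Olfm4, a Notch-dependent product of crypt base columnar cells, was at 164.5 ± 24.2 FPKM (WT) and 110.0 ± 38.4 FPKM (Zeb2+/-), with overlapping groups (limma adjusted p = 0.246). The cotransporter Slc12a2 and the Wnt inhibitor Rnf43 had log2 fold changes of -0.43 and -0.24.

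The genes whose pattern over the 8 libraries lay nearest to each tested member were found by the mean absolute difference of centred log2(FPKM + 1), among 10574 protein-coding genes. For Notch1 they were Ptges (0.0721), Robo4 (0.0952), which is one of the endothelial markers, and Selplg (0.1001). Notch2 lay nearest to Mycbp2 (0.0594), Ppm1m (0.0774) and Sorl1 (0.0779). For Dll1 the nearest were Stard4 (0.0460), Cpsf7 (0.0464) and Kifc2 (0.0535), and for Dll4 they were Tet2 (0.0705), Tmem245 (0.0764) and Dopey1 (0.0833). Jag1 lay nearest to Faap100 (0.0517), Ints9 (0.0653) and Gys1 (0.0705). For Hes1 the nearest were Prkag2 (0.0856), Slc25a14 (0.0949) and Slc18a2 (0.0967), and for Atoh1 they were Eno1 (0.0621), Mea1 (0.0626) and Syap1 (0.0646). These distances are descriptions over the same libraries that the tests use.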
